A study of Chlamydomonas reinhardtii with 24 samples.

Results

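LHCBM1 to LHCBM9 are the 9 nuclear genes for the major light-harvesting complex of photosystem II (LHCII) in the green alga Chlamydomonas reinhardtii. They were taken by locus from a table of read counts for 14621 genes, all 9 were found in it, and all 9 had enough counts to be tested. LHCII is a pigment-protein complex of the thylakoid membrane that binds chlorophyll and carotenoids and passes absorbed light energy to the photosystems. It forms trimers, whose subunits are sorted by protein sequence into type I (LHCBM3, LHCBM4, LHCBM6, LHCBM8 and LHCBM9), type II (LHCBM5), type III (LHCBM2 and LHCBM7) and type IV (LHCBM1). When light is in excess, algae can dissipate the energy of this antenna as heat, move part of it between the photosystems, or change how much of it they make. The loci were Cre01.g066917_4532.v6.1 (LHCBM1), Cre12.g548400_4532.v6.1 (LHCBM2), Cre04.g232104_4532.v6.1 (LHCBM3), Cre06.g283950_4532.v6.1 (LHCBM4), Cre03.g156900_4532.v6.1 (LHCBM5), Cre06.g285250_4532.v6.1 (LHCBM6), Cre12.g548950_4532.v6.1 (LHCBM7), Cre06.g284250_4532.v6.1 (LHCBM8) and Cre06.g284200_4532.v6.1 (LHCBM9).

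Polyadenylated RNA was sequenced from 8 groups of 3 libraries each. They were the wild-type strain CC5325 (WT) and the strains labelled uvr8 (LMJ.RY40202.156289), co (LMJ.RY402.149321) and hy5 (LMJ.RY402.194448), each with and without narrowband UV-B at 0.2 mW per square centimetre for 1 h. All cultures had grown in acetate medium, had been moved to minimal medium, and stood in dim white light of 20 µmol per square metre and second, with UV-B blocked by a filter in the controls. UVR8 is the UV-B photoreceptor, CO a CONSTANS-like regulator and HY5 a bZIP transcription factor, and each mutated gene was represented by 1 strain, with no rescued strain among the libraries. The design asks how transcripts respond to UV-B and which of these genes the response needs.

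Libraries held 19267716 to 27686700 counts. In co the CO transcript stood at 7.77 ± 1.18 CPM (counts scaled to a common library size) without UV-B against 615 ± 102 CPM in WT (mean ± SD, n = 3 here and below), and HY5 stood at 0.931 ± 0.128 CPM in hy5 with UV-B against 162 ± 18.3 CPM in WT. UVR8 stood at 24.6 ± 0.936 CPM in uvr8 against 40.0 ± 8.77 CPM in WT without UV-B, a smaller difference, so the transcript checks that label less closely. Within each group all library pairs differed beyond counting noise. Separate cultures are not stated in the labels, so each p-value reflects the spread of these libraries, which may be technical. Levels are relative to all counted RNA, and fewer transcripts per cell cannot be told apart from more of other RNA.

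The libraries numbered 1 stood apart for the LHCBM genes in 7 of the 8 groups, all but WT without UV-B. Without UV-B, library 1 was the highest of 3 for all 9 members in uvr8, in co and in hy5. In WT without UV-B it was the highest for 3 of 9 and the lowest for 4 of 9. With UV-B it was the lowest of 3 for 8 of 9 members in WT, uvr8 and co, and for all 9 in hy5. Over all genes tested, library 1 was the highest in 40.1%, 41% and 43.6% of genes in uvr8, co and hy5 without UV-B, and the lowest in 38.9%, 40.6% and 43.2% with it. In WT it was the highest in 39.7% and the lowest in 41.3% without UV-B, and the lowest in 41.8% with it. What the numbers stand for is not given in the labels, and the results below are given with all libraries and then without those numbered 1.

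**Figure D1:**
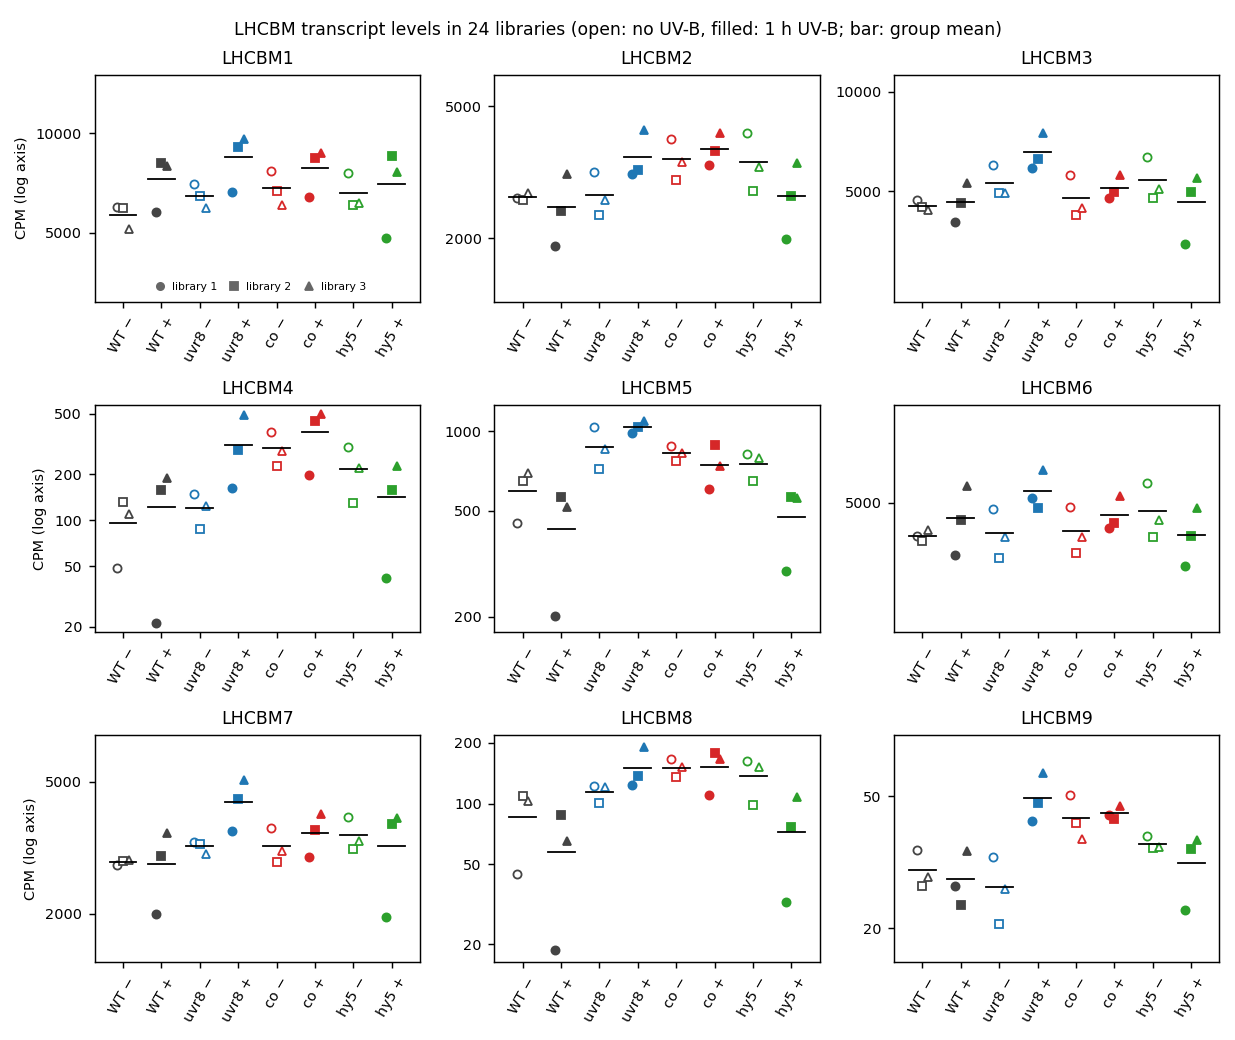
Transcript levels of the 9 LHCBM genes in each of the 24 libraries, in CPM on a log axis, by genotype without (−, open) and with (+, filled) UV-B; symbols give the library number and bars the group mean. LHCBM4 and LHCBM8 range most widely, from 21.3 to 498 and from 18.8 to 191 CPM.

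The 9 transcripts differed in how much they varied. LHCBM1, LHCBM2, LHCBM3, LHCBM6, LHCBM7 and LHCBM9 varied little within groups, with an SD on the log2 scale of 0.20 to 0.29 pooled over the 8 groups. LHCBM5 varied more (0.40), LHCBM8 more again (0.63) and LHCBM4 most (0.94). From the lowest to the highest group mean, levels differed 3.94-fold for LHCBM4, 2.64-fold for LHCBM8, 2.43-fold for LHCBM5 and 1.87-fold for LHCBM9, and 1.36-fold to 1.54-fold for the other 5. The highest group was uvr8 with UV-B for 6 members, and co with UV-B for LHCBM2, LHCBM4 and LHCBM8. The lowest was a WT group for 8 members and uvr8 without UV-B for LHCBM9. In the order of the 8 group means, 7 of 7 pairs of neighbouring groups overlapped in their libraries for each member, except 6 of 7 for LHCBM7, where uvr8 without UV-B lay just above WT without UV-B. Levels are not compared between genes, since no transcript lengths of this gene build were used here.

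In WT, 1 h of UV-B moved no member past the threshold of an adjusted p under 0.05 in edgeR. Over all genes tested, 16.3% were called in this comparison, 10.6% higher and 5.7% lower. No member had an unadjusted p under 0.05, and DESeq2 called 0 as well. The share of all genes with an unadjusted p under 0.05 is not given, here or below. Nor is the share called by DESeq2, except for rises with UV-B in uvr8. Its 0 calls can thus not be set against a rate over all genes. In the fit with a replicate block 0 of 9 members were called, where 28.4% of all genes were. LHCBM1, which is needed for full heat dissipation in this alga, stood at 5979, 5925 and 5132 CPM in the controls and 5775, 8152 and 7933 CPM under UV-B in libraries 1, 2 and 3 (log2 change 0.36, SE 0.20, adjusted p = 0.243). The libraries with UV-B numbered 2 and 3 lay above every library without it, and the one numbered 1 did not. LHCBM5, a subunit found on photosystem I after state transitions, stood at 449, 648 and 693 CPM in the controls and 201, 563 and 518 CPM under UV-B (log2 change -0.48, SE 0.29, adjusted p = 0.305). Each same-numbered library was lower with UV-B, though the groups overlapped.

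The type I genes LHCBM4 and LHCBM8 were low in both WT libraries numbered 1. LHCBM4 stood at 48.2, 132 and 109 CPM in the controls and 21.3, 159 and 188 CPM under UV-B (log2 change 0.34, SE 0.64, adjusted p = 0.7805). LHCBM8 stood at 44.9, 109 and 103 CPM in the controls and 18.8, 88.3 and 65.0 CPM under UV-B (log2 change -0.58, SE 0.44, adjusted p = 0.4304). The groups overlapped for both genes. LHCBM9, a type I gene known for its rise in nutrient-starved cells, stood at 34.3, 26.8 and 28.4 CPM in the controls and 26.8, 23.4 and 34.3 CPM under UV-B (log2 change -0.08, SE 0.20, adjusted p = 0.835). The type III pair, whose protein takes part in state transitions, stood at 2667 ± 60.8 against 2485 ± 619 CPM for LHCBM2 and 2871 ± 55.0 against 2828 ± 764 CPM for LHCBM7. LHCBM3 stood at 4532.2 ± 153 against 4653 ± 625 CPM and LHCBM6 at 3988 ± 156 against 4518 ± 1070.0 CPM. The median log2 fold change of the 9 was -0.02, against 0.01 over all genes tested, and 4 of 9 values were positive.

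In uvr8, all 9 members had higher mean levels with UV-B, with log2 fold changes of 0.25 to 1.39 and a median of 0.39, against 0.01 over all genes tested. No member passed edgeR's threshold, and 0% of all genes did. An unadjusted p under 0.05 was found for 3 of 9 members, with no share of all genes to set it against. DESeq2 called 1 member higher, LHCBM9, where it called 0.0661% of all genes higher. LHCBM9 stood at 32.7, 20.6 and 26.2 CPM in the controls and 42.0, 47.8 and 58.6 CPM under UV-B, and the 2 groups did not overlap. Its log2 fold change was 0.90 (SE 0.20, adjusted p = 0.396). LHCBM4 stood at 148, 88.0 and 124 CPM in the controls and 163, 287 and 492 CPM under UV-B (log2 change 1.39, SE 0.65, adjusted p = 0.552). Its lowest library with UV-B lay just above its highest without.

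For 5 of the 9 members in uvr8, namely LHCBM4, LHCBM6, LHCBM7, LHCBM8 and LHCBM9, every library with UV-B lay above every library without it; over all genes tested this held for 6.79%. LHCBM6 stood at 4784, 3416 and 3936 CPM in the controls and 5165, 4829 and 6277 CPM under UV-B (log2 change 0.42, SE 0.20, adjusted p = 0.552). LHCBM7 stood at 3300.3, 3243 and 3037 CPM in the controls and 3554, 4429 and 5081 CPM under UV-B (log2 change 0.45, SE 0.22, adjusted p = 0.576). LHCBM8 stood at 122, 101 and 120.3 CPM in the controls and 124, 136 and 191 CPM under UV-B (log2 change 0.39, SE 0.44, adjusted p = 0.798). In all 3 genes the lowest UV-B library was close to the highest library without UV-B. The other 4 members, LHCBM1, LHCBM2, LHCBM3 and LHCBM5, had group means of 6471 ± 541 against 8452 ± 1604, 2706 ± 415 against 3526 ± 609.7, 5293 ± 623 against 6564 ± 856 and 871 ± 157 against 1038 ± 56.5 CPM.

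The UV-B effect differed between uvr8 and WT for LHCBM9, 1 of the 9 members, where it was higher in uvr8 by 0.98 on the log2 scale (SE 0.28, adjusted p = 0.0435 in edgeR). Of all genes tested, 0.977% were called higher in this comparison and 6.29% in either direction. Same-numbered libraries of uvr8 were higher with UV-B in 3 of 3 cases, which any matching would give, since these groups did not overlap. Those of WT were higher in 1 of 3. The call did not hold in 8 of 12 fits that left out 1 library (adjusted p = 0.0729 to 0.124), when the fit held only the 12 libraries of these groups (adjusted p = 0.138), or without the libraries numbered 2 (adjusted p = 0.362) or 3 (adjusted p = 0.444). The 8 were both groups' UV-B libraries numbered 2, the uvr8 UV-B library numbered 3, the WT UV-B library numbered 1, the WT libraries without UV-B numbered 1 and 3, and the uvr8 libraries without UV-B numbered 2 and 3. The difference was positive for the other 8 members as well, from 0.03 for LHCBM1 to 1.04 for LHCBM4, with adjusted p of 0.372 to 0.981.

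**Figure D2:**
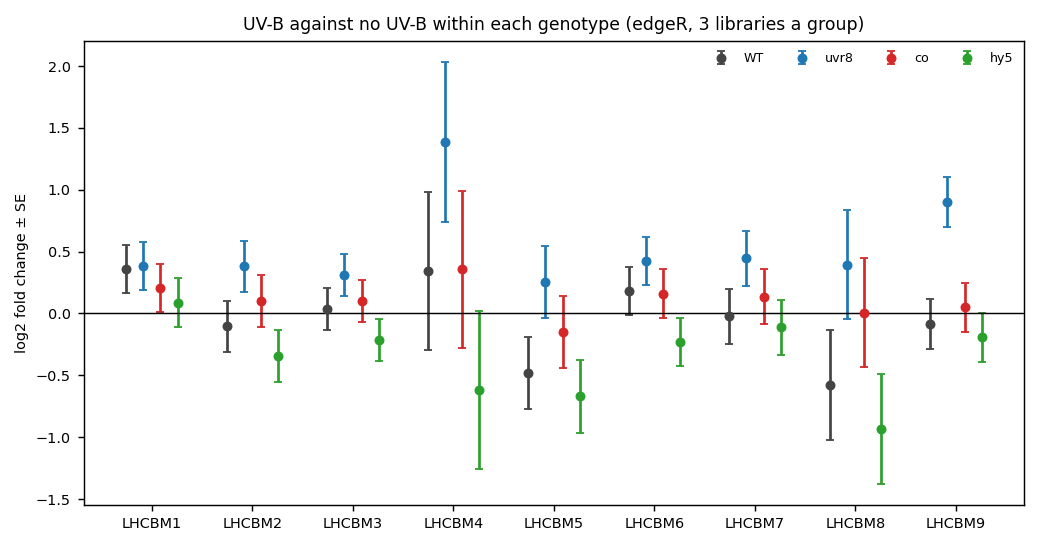
Log2 fold change with UV-B of each LHCBM gene in WT, uvr8, co and hy5, from edgeR over 3 libraries a group, with bars of 1 SE. All 9 values for uvr8 (0.25 to 1.39) lie above 0, and 8 of 9 for hy5 lie below it.

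In co and in hy5 no member passed the threshold with UV-B, where 1.72% and 9.59% of all genes tested were called. An unadjusted p under 0.05 was found for 0 members in co and 2 in hy5, again with no share of all genes beside it. DESeq2 called 0 in both. In co, log2 fold changes ran from -0.15 for LHCBM5 to 0.36 for LHCBM4, with a median of 0.10 against 0.01 over all genes tested. LHCBM9 in co stood at 50.3, 41.4 and 37.0 CPM in the controls and 43.8, 42.7 and 46.8 CPM under UV-B (log2 change 0.05, SE 0.20, adjusted p = 0.993). LHCBM4 in co stood at 379, 228 and 285 CPM in the controls and 197, 447 and 498 CPM under UV-B (log2 change 0.36, SE 0.64, adjusted p = 0.988). For both genes the groups overlapped. The UV-B effect in co differed from that in WT by -0.16 to 0.59, and 0 of 9 members were called (1.75% of all genes).

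In hy5, 8 of the 9 log2 fold changes were negative, with a median of -0.23 against -0.0041 over all genes tested. LHCBM5 stood at 818, 651 and 794 CPM in the controls and 298, 565 and 560.5 CPM under UV-B (log2 change -0.67, SE 0.29, adjusted p = 0.192). Every library with UV-B lay below every library without it, which held for 9.76% of all genes tested and for no other member. LHCBM8 stood at 163, 98.9 and 152 CPM in the controls and 32.6, 76.9 and 107 CPM under UV-B (log2 change -0.93, SE 0.45, adjusted p = 0.241). LHCBM4 stood at 301, 129.9 and 221 CPM in the controls and 41.8, 157 and 226 CPM under UV-B (log2 change -0.61, SE 0.64, adjusted p = 0.682). In both, the library with UV-B numbered 1 was the lowest of all 6. The UV-B effect in hy5 differed from that in WT by -0.96 to -0.09, and 0 of 9 members were called (0.0294% of all genes).

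The direction of these values varied with the library number. Between libraries numbered 1, all 9 members were lower with UV-B in WT, co and hy5, with median log2 ratios of -0.48, -0.26 and -1.003, and 4 of 9 were lower in uvr8 (median 0.02). Between those numbered 2, 9 of 9 were higher in uvr8 and in co and 5 of 9 in WT and in hy5, with medians of 0.49, 0.30, 0.04 and 0.02. Between those numbered 3, 9 of 9 were higher in uvr8, 8 in co, and 7 in WT and in hy5, with medians of 0.70, 0.34, 0.27 and 0.08. Same numbers were not shown to mark pairs of samples in the mutants, so these ratios are descriptions of single libraries.

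**Figure D3:**
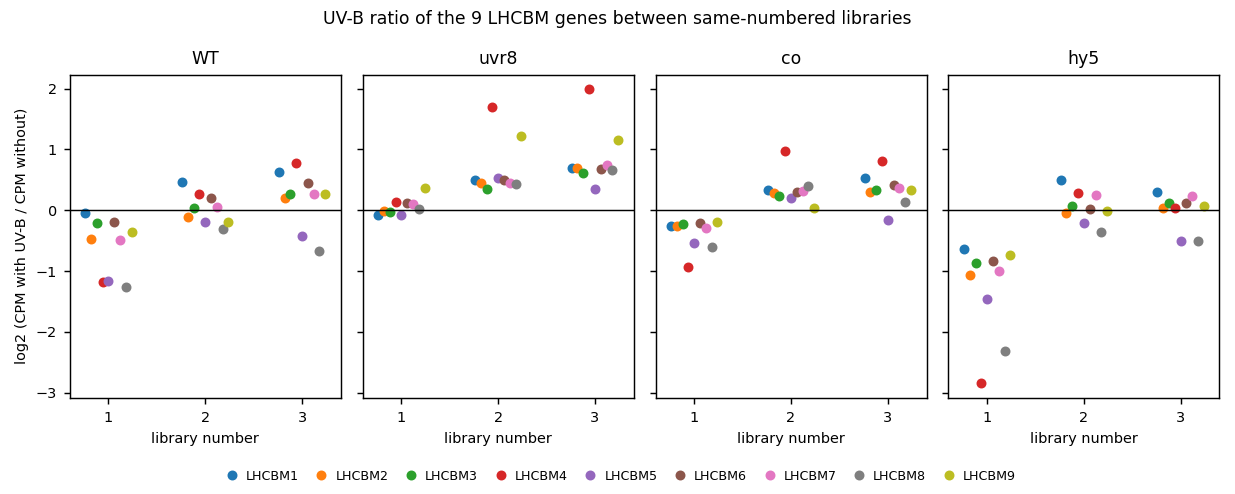
Log2 ratio of CPM with UV-B to CPM without it between same-numbered libraries, for the 9 LHCBM genes in each genotype. For libraries numbered 1 all 9 ratios are below 0 in WT, co and hy5; for those numbered 2 and 3 all 9 are above 0 in uvr8.

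The libraries numbered 1 were mostly the lowest with UV-B in these same LHCBM values, and in the mutants the highest without it. Leaving them out thus by itself raises the changes with UV-B within a genotype. The calls of a rise below are for that reason no separate evidence of one. Without the 8 libraries numbered 1, edgeR called 7 of 9 members higher with UV-B in uvr8, all but LHCBM5 and LHCBM8, where 6.39% of all genes were called higher. LHCBM4 then rose most (log2 change 1.88, SE 0.32, adjusted p = 0.00591), followed by LHCBM9 (log2 change 1.19, SE 0.18, adjusted p = 0.00383). The other 5 rose by 0.49 (LHCBM3) to 0.61 (LHCBM7), with adjusted p of 0.00377 to 0.0446. In WT, co and hy5, LHCBM1 was then the 1 member called, and it rose by 0.51, 0.42 and 0.41 on the log2 scale (adjusted p = 0.00244, 0.0268 and 0.0108), where 12.5%, 4.23% and 12.1% of all genes were called higher. In the libraries numbered 2 and 3 alone, LHCBM1 was thus higher with UV-B in all 4 genotypes. Its UV-B effect in uvr8 differed there from that in WT by 0.09 (SE 0.13, adjusted p = 0.726). The effect was higher in uvr8 than in WT for LHCBM9 (by 1.16, adjusted p = 0.0159) and LHCBM5 (by 0.78, adjusted p = 0.0302), 2 of 9 members, where 3.4% of all genes were called higher. No member was called without the libraries numbered 2 or without those numbered 3. With 1 number left out, all genes called with UV-B ran from 531 to 3082 in WT and 0 to 1581 in uvr8. They ran from 0 to 771 in co and 366 to 2625 in hy5, and from 224 to 1387 for the effect in uvr8 against WT. The highest of each came without number 1. In that fit 22.6% of all genes were called with UV-B in WT and 11.6% in uvr8, beside 1 and 7 of 9 members. Whether calls on members followed those on all genes was not tested.

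Over the 9 members, the median log2 fold change with UV-B without the libraries numbered 1 was 0.13 in WT, 0.60 in uvr8, 0.28 in co and 0.07 in hy5, and 7, 9, 9 and 6 of 9 values were positive. The median in hy5 thus turned from negative to positive. The UV-B effect in hy5 against WT then had a median of -0.03, with 3 of 9 values positive, against -0.25 and 0 of 9 with all libraries. A fit of the libraries numbered 2 and 3 with the number as a block, chosen after the data were seen, called more members and more of all genes. It called 2 of 9 members higher with UV-B in WT (19% of all genes), 8 in uvr8 (14.9%), 6 in co (11.6%) and 2 in hy5 (19.4%). For the UV-B effect in uvr8 against WT it called 7 of 9 higher (11% of all genes).

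Without UV-B, no member differed between a mutant and WT at the threshold, where 5.33%, 3.27% and 4.26% of all genes were called in uvr8, co and hy5. Unadjusted p was under 0.05 for 0, 2 and 0 members, again with no share of all genes beside it. DESeq2 called 0 in each. The mean level was nevertheless higher than in WT for 8 of 9 members in uvr8 and for 9 of 9 in co and in hy5, with median log2 fold changes of 0.19, 0.38 and 0.27 against -0.02, -0.05 and -0.04 over all genes tested. Without the libraries numbered 1 these medians fell to 0.04, 0.25 and 0.13. With a replicate block 0 of 9 members were called in uvr8 and in hy5, where 16% and 15.6% of all genes were. The 3 comparisons share the WT libraries. In co, LHCBM4 differed most from WT (log2 change 1.62, SE 0.65, adjusted p = 0.1997), and its 3 libraries lay above the 48.2, 132 and 109 CPM of WT. Without the libraries numbered 1 its log2 change was 1.08. LHCBM9 in co, at the values given above, also lay above all WT libraries (log2 change 0.52, SE 0.20, adjusted p = 0.179). With scaling by library totals only it was the 1 member called higher in co, where 3.94% of all genes were, and the fit of libraries 2 and 3 with a block called 2 (7.33% of all genes).

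Every library lay above every WT library for 3 members in uvr8 (LHCBM3, LHCBM5 and LHCBM7), against 11.5% of all genes tested. In co this held for 6 members (LHCBM1, LHCBM2, LHCBM4, LHCBM5, LHCBM8 and LHCBM9; 11.6% of all genes). In hy5 it held for 5 (LHCBM1, LHCBM2, LHCBM3, LHCBM7 and LHCBM9; 10.6%). LHCBM5 stood at 1034, 721 and 857 CPM in uvr8 and 878, 774 and 826 CPM in co, against 449, 648 and 693 CPM in WT (for uvr8, log2 change 0.54, SE 0.29, adjusted p = 0.3399). Without the libraries numbered 1, which were the highest in the mutants, 0 of 9 members were called in each mutant (6.9%, 3.98% and 6.37% of all genes in uvr8, co and hy5), and 5, 7 and 9 of 9 log2 fold changes were positive in uvr8, co and hy5.

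**Figure D4:**
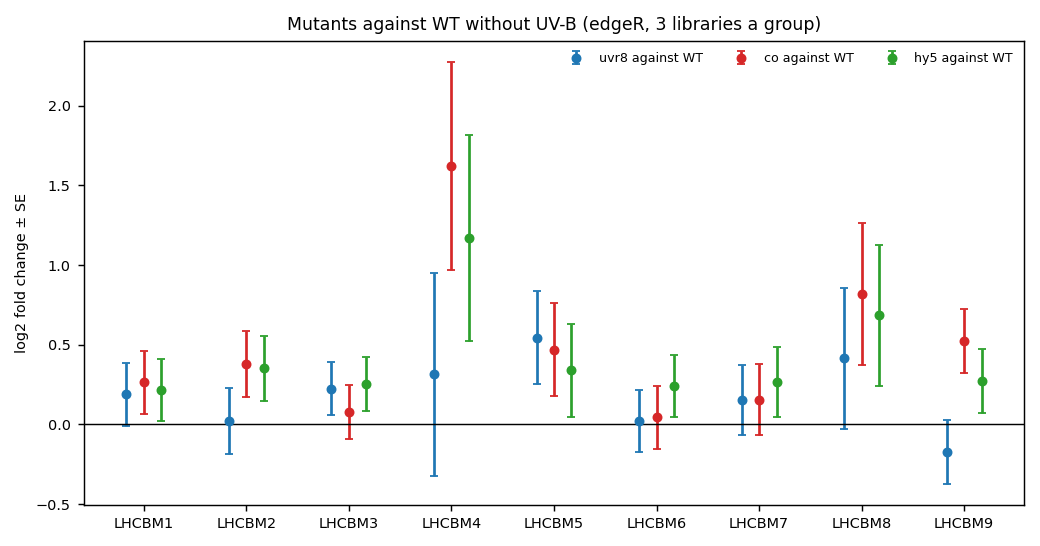
Log2 fold change of each LHCBM gene in uvr8, co and hy5 against WT, all without UV-B, from edgeR over 3 libraries a group, with bars of 1 SE. Of the 27 values 26 are positive, and none passed the threshold.

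Since near-identical copies can share reads, the family was also summed. How reads matching several copies were counted is not given, and a sum cannot restore reads that were left uncounted. The counts of LHCBM1 to LHCBM9 together made up 1.75%, 2.04% and 2.02% of all counts in WT without and 1.17%, 2.05% and 2.18% with UV-B, in libraries 1, 2 and 3. In uvr8 they made up 2.38%, 2.13% and 2.12% without and 2.38%, 3.14% and 3.66% with UV-B. The uvr8 groups did not overlap, but library 1 had almost the same share in both. In co the shares were 2.87%, 2.58% and 2.55% without and 2.37%, 3.12% and 3.24% with UV-B. In hy5 they were 2.99%, 2.42% and 2.54% without and 1.57%, 2.57% and 2.68% with UV-B. These shares are of all counts, with no TMM scaling. The log2 ratio of the mean shares was -0.11 in WT, 0.47 in uvr8, 0.12 in co and -0.22 in hy5, and without the libraries numbered 1 it was 0.06, 0.68, 0.31 and 0.08. On the TMM scale used for all other levels the summed CPM gave log2 ratios of 0.12 in WT, 0.39 in uvr8, 0.14 in co and -0.15 in hy5, and 0.28, 0.58, 0.35 and 0.18 without the libraries numbered 1. The sign of the ratio in WT with all libraries thus depended on the scaling.

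Sums of copies were fitted on the TMM scale, and lay within the range of the separate genes. LHCBM2 and LHCBM7 summed gave log2 fold changes with UV-B of -0.06 in WT, 0.42 in uvr8, 0.12 in co and -0.22 in hy5. The 5 type I genes summed gave 0.10, 0.38, 0.14 and -0.24 in the same order. LHCBM4, LHCBM8 and LHCBM9 were a small share of the family's counts, from 0.876% ± 0.428 in WT with UV-B to 2.17% ± 0.535 in co with UV-B, so a small number of reads assigned from the other type I copies could change their values, which was not tested. LHCBM8 and LHCBM9 are neighbours with 0 annotated genes between them in the RefSeq table of assembly v5.5. There, 5 genes lie between LHCBM4 and LHCBM9, 21 between LHCBM6 and LHCBM8, and 11 between LHCBM2 and LHCBM7.

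**Figure D5:**
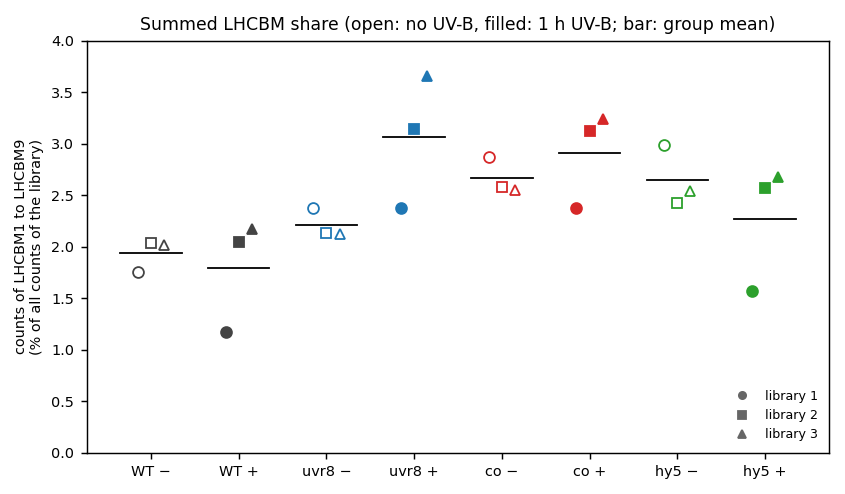
Summed counts of LHCBM1 to LHCBM9 in percent of all counts of each library, by genotype without (−, open) and with (+, filled) UV-B; symbols give the library number and bars the group mean. The libraries numbered 1 with UV-B are the lowest of their groups, at 1.17%, 2.38%, 2.37% and 1.57% in WT, uvr8, co and hy5.

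Other genes of the antenna and of its making were followed beside the LHCBM genes. These lists were put together by locus from general knowledge of the species' annotation, and neither the count table nor the RefSeq table pairs their loci with names, so they are given by locus and their identity was not checked. Of 11 loci listed for minor photosystem II antenna proteins and photosystem I antenna proteins, 1 rose and 2 fell with UV-B in WT. There 10.6% and 5.7% of all genes were called higher and lower. No locus passed in uvr8 or co (0% and 1.72% of all genes). In hy5 1 rose and 5 fell, where 7.04% and 2.54% of all genes were called higher and lower. Their log2 fold changes were positive for 11 of 11 loci in uvr8 (median 0.16) and for 1 of 11 in WT and in hy5 (medians -0.25 and -0.41). The UV-B effect in uvr8 against WT was positive for 10 of 11 (median 0.33). The exception, Cre02.g110750_4532.v6.1, was called lower, by -2.28 (adjusted p = 7.68e-05 in edgeR), and kept the call in all 12 fits without 1 library. Cre16.g673650_4532.v6.1 was called higher, by 0.75 (adjusted p = 0.00541), and kept the call in all 12 fits without 1 library. It lost the call with only the libraries compared (adjusted p = 0.112), and without the libraries numbered 2 (adjusted p = 0.201) or 3 (adjusted p = 0.403). Of all genes 5.31% and 0.977% were called lower and higher. For co against WT 1 of 11 was called lower (1.7% of all genes). Without UV-B, 9, 9 and 10 of 11 were higher than WT in uvr8, co and hy5 (medians 0.04, 0.08 and 0.09). Most signs in uvr8 and in the mutants without UV-B were thus the same in these loci as in the LHCBM genes, and whether the lists differ was not tested. Without the libraries numbered 1, 3 of 11 loci rose with UV-B in uvr8, where 6.39% of all genes were called higher. With the lowest adjusted p in WT, Cre02.g110750_4532.v6.1 rose (log2 change 2.38, SE 0.24, adjusted p = 3.68e-07) and Cre16.g673650_4532.v6.1 fell (log2 change -0.64, SE 0.12, adjusted p = 0.000496; adjusted p = 0.0659 with only the libraries compared and 0.0637 without those numbered 3). Of 7 loci listed for LHCII biogenesis and regulation 1 fell in WT and in hy5, where 5.7% and 2.54% of all genes were called lower. None was called in uvr8 or co (0% and 1.72% of all genes). With a replicate block, 4 of the 7 fell and 1 rose in WT, where 12.8% and 15.7% of all genes were called lower and higher. That block was fitted over all 24 libraries, and same numbers were not shown to pair in the mutants. The pairing of the WT libraries thus does not settle whether it applies. The locus called in WT and in hy5 without the block was Cre06.g268600_4532.v6.1, which stood at 816 ± 56.5 CPM in the controls and 514 ± 87.9 CPM under UV-B in WT (log2 change -0.67, SE 0.17, adjusted p = 0.01199), and at 802 ± 89.5 and 437 ± 56.2 CPM in hy5 (log2 change -0.88, SE 0.18, adjusted p = 0.00184). In uvr8 it stood at 717 ± 171 and 829 ± 109 CPM (log2 change 0.21, SE 0.17, adjusted p = 0.7198). The UV-B effect on this locus was higher in uvr8 than in WT by 0.88 (SE 0.25, adjusted p = 0.0368). Its call in WT was lost without the UV-B library numbered 2 (adjusted p = 0.0511), with only the libraries compared (adjusted p = 0.0852), and without all libraries numbered 2 (adjusted p = 0.0552) or 3 (adjusted p = 0.154). In hy5 it was lost without those numbered 3 (adjusted p = 0.0950). Its difference between uvr8 and WT was lost in 8 of 12 fits that left out 1 library (adjusted p = 0.0622 to 0.104), with only the libraries compared (adjusted p = 0.17) and without the libraries numbered 2 (adjusted p = 0.201) or 3 (adjusted p = 0.48).

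Profiles over the 8 group means were compared by the root mean square difference of their centred log2 values, over 12907 other genes. The profile of LHCBM7 was nearest to that of LHCBM3 (0.0664), and LHCBM7 was the second nearest to LHCBM3. These profiles were nearly flat, with an SD over the groups of 0.165 for LHCBM3 and 0.188 for LHCBM7. Within groups the SD of single libraries was 0.203 and 0.288, which is not on the scale of an SD over means of 3 libraries. How far ranks among such flat profiles rest on the spread of the libraries was not tested, nor was shared regulation. LHCBM6 ranked 12 for LHCBM3 and LHCBM8 ranked 10 for LHCBM4 (0.387). All other pairs of the same type ranked further off. They ran from LHCBM9 at 106 for LHCBM4 to LHCBM4 at 11758 for LHCBM3, with LHCBM7 at 156 for LHCBM2. For members other than LHCBM7 the nearest gene was not an LHCBM gene. Differences to it ran from 0.057 for LHCBM1 (Cre17.g713600) to 0.218 for LHCBM4. The nearest to LHCBM9 was Cre14.g632650 (0.121). Neither locus has a name in the tables used here.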

How the data were processed

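The authors deposited raw read counts per gene, whole numbers with no normalization. Per the submitters' processing notes, the tools were edgeR 3.42.4, HTSeq 0.11.3, STAR 2.7.10b and bcl2fastq 2.20.0, with no roles named. How reads matching several copies were counted is not given in the sources used here. LHCBM, UVR8, CO and HY5 were paired with loci by hand-written lists, which the RefSeq table (assembly v5.5) could not check, since it holds no symbols. Of the comparison lists, 2 loci were not analysed here, and no level per length was computed.

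From the 24 libraries, genes at 0 (126) and genes under edgeR's filterByExpr limits (minimum count 10, total 15) were left out, leaving 13613. Counts were scaled by TMM (factors 0.6703 to 1.199), which gave the CPM. edgeR 4.0.16 (R 4.3.3, limma 3.58.1) fitted 1 mean per group over all libraries. Its quasi-likelihood F test was applied to 10 comparisons, with Benjamini-Hochberg adjustment over all genes tested and calls under 0.05. The SE is the log2 fold change divided by the square root of F. Likeness used log2(CPM + 0.5) and genes with a mean of at least 1 CPM.

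Members, lists and the rule for named genes (all members, the mutated genes, per list the 3 genes with the lowest adjusted p for UV-B in WT, the nearest profile of each member) were chosen with earlier results of these data known; of the list genes 3 loci are printed, since they carry no names here. Alternatives were DESeq2 1.42.0, RLE scaling, no filter, fewer libraries and a replicate block. In a test on simulated data edgeR stayed within the limit set for false calls. DESeq2 exceeded it, the limit for DESeq2 was raised afterwards, and its calls are given only as an alternative. Same-numbered libraries deviated together (correlation over 0.1 for all 3 numbers) for UV-B in WT (0.563, 0.5175 and 0.173) and for uvr8 and hy5 against WT without UV-B, and were not shown to pair elsewhere.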

Additional observations from a re-analysis of the deposited data

Results flagged for a closer look

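The UV-B effect on LHCBM9 differed between uvr8 and WT by 0.9828 on the log2 scale (adjusted p = 0.0435, edgeR interaction term). It was the only LHCBM value among the 10 comparisons past the threshold with all libraries. Mean levels went from 26.5 ± 6.07 to 49.4 ± 8.43 CPM in uvr8 and from 29.8 ± 3.95 to 28.2 ± 5.53 CPM in WT (mean ± SD, n = 3).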

How the results depend on the processing

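With 3 libraries a group, calls on the LHCBM genes depended on which libraries entered. Of 1602 log2 fold changes of members recomputed, 1552 kept their side of the threshold, 11 lost a call, 38 gained one and 1 reversed; 113 of the 1552 changed sign, uncalled in both fits. The number of members called with UV-B ran from 0 to 1 in WT, 0 to 7 in uvr8, 0 to 1 in co and 0 to 1 in hy5 when all libraries of 1 number were left out, and stayed at 0 when any 1 library was left out. All genes called ran from 531 to 3082, 0 to 1581, 0 to 771 and 366 to 2625 in the same order without 1 number. Without 1 library they ran from 1273 to 2227, 0 to 27, 131 to 214 and 827 to 1398. For the UV-B effect in uvr8 against WT, members called ran from 0 to 2 without 1 number, against 1 with all libraries. All genes called there ran from 224 to 1387. With only the libraries compared 0 members were called. DESeq2 called 1 member, LHCBM9, in uvr8 (adjusted p = 0.0174). DESeq2 had exceeded the limit for false calls in the simulated data, so nothing rests on that call.

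The replicate block (library number as a term over all 24 libraries) changed no call on a member. For LHCBM9 in uvr8 against WT it gave 0.99 (adjusted p = 0.0183). It raised the LHCII biogenesis and regulation loci called with UV-B in WT from 1 to 5 of 7, and all genes called from 16.3% to 28.4%. A fit of libraries 2 and 3 alone with the replicate block, chosen after the data were seen, called 2 members in WT, 8 in uvr8, 6 in co, 2 in hy5, 7 for the UV-B effect in uvr8 against WT, and 2 in co against WT without UV-B, all higher, where 19%, 14.9%, 11.6%, 19.4%, 11% and 7.33% of all genes were called higher. It reversed LHCBM7 in hy5, to 0.25 (adjusted p = 0.0330) from -0.11; the numbers were not shown to pair samples in the mutants. Scaling by library totals only, also chosen after the data were seen, shifted the median of all genes by over 0.1 in 6 of 10 comparisons (-0.25 with UV-B in WT, 0.22 in co against WT). It called 1 member in co against WT without UV-B (LHCBM9, 0.79, adjusted p = 0.0339), and turned LHCBM3 (-0.20) and LHCBM6 (-0.06) negative with UV-B in WT, both uncalled. The cause of these changes was not tested. The log2 ratio of the summed share ran from -0.24 to 0.06 in WT, 0.29 to 0.68 in uvr8, 0.01 to 0.31 in co and -0.39 to 0.08 in hy5 without 1 number. With TMM library sizes as the denominator, chosen after the data were seen, it was 0.12, 0.39, 0.14 and -0.15, so the sign in WT turned.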
